A study of Homo sapiens with 12 samples.

Results

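The genes described here encode the proteasome. They are the 46 protein-coding genes whose symbol is PSMA, PSMB, PSMC, PSMD, PSME, PSMF or PSMG followed by a number, with PSMB8 and PSMB9 left out, among 61533 gene entries. The proteasome is the large protease that degrades proteins tagged with ubiquitin. Its barrel-shaped core particle is built from rings of alpha subunits (PSMA), which gate the entry, around rings of beta subunits (PSMB), some of which cut the substrate. A regulatory particle on the end of the barrel unfolds substrates with a ring of ATPases (PSMC) and binds and removes ubiquitin with the remaining subunits (PSMD). PSME proteins are alternative activators, PSMF1 binds the core and inhibits it in vitro, and PSMG proteins help to assemble the core. Most dividing cells transcribe the constitutive subunits together, and the factor NFE2L1 raises them when proteasome activity is blocked.

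All libraries came from HMLE, an immortalised human mammary epithelial line, as polyA RNA after puromycin selection. There were 4 derived lines with 3 libraries each: a double line overexpressing HORMAD1 and CT83, a HORMAD1 overexpression line, a CT83 overexpression line and a control line. HORMAD1 is a meiotic chromosome protein, and both transgenes belong to the cancer/testis genes, which are normally expressed mainly in germ cells. Each construct was represented by 1 line, so that the effect of a transgene and another difference between lines cannot be told apart. The labels do not say whether the libraries of a line came from separate cultures, so p-values measure the spread between libraries, which may be technical. Which vector and promoter drive the transgenes is not given in the sources used here.

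Total counts ran from 9898845 to 14159740 per library. HORMAD1 had 283 to 346.5 CPM (read counts scaled to a common library size) in the double line and 202.8 to 335.1 CPM in the HORMAD1 libraries, and was at 0 in the CT83 and control lines. CT83 had 86.69 to 117.8 CPM in the double libraries and 400.2 to 723.7 CPM in the CT83 libraries, and was at 0 in the HORMAD1 and control lines. Of the luminal markers, KRT8, KRT18, EPCAM and CDH1 were expressed, but KRT19 was at 0.1685 to 1.492 CPM. The basal markers KRT5, KRT14, KRT17 and TP63 were all expressed, with KRT5 at 2411 to 3130 CPM. Immune and endothelial markers did not exceed 1.931 CPM. Of the fibroblast markers, DCN, LUM and PDGFRB did not exceed 2.617 CPM, and COL1A1 had 5.4 to 60.5 CPM. COL1A2 was at 18.87 CPM in control replicate 3 and at most 0.4322 CPM in every other library. In such bulk RNA, fewer cells of a type and less RNA per cell cannot be told apart.

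All 41 proteasome genes that passed the filter on low counts were expressed in every library, and none differed between lines at an adjusted p under 0.05 (edgeR quasi-likelihood fit of 15616 genes, p-values adjusted by Benjamini-Hochberg). PSMA5, the alpha-ring subunit α5, had the widest range of line means, with 297 ± 36.7 CPM in the double libraries, 217 ± 17.6 CPM in the HORMAD1 libraries, 248 ± 34.2 CPM in the CT83 libraries and 238 ± 32.6 CPM in the control libraries (SD, n = 3 each). The median spread of the proteasome genes was below that of all genes tested. The 2 sets were not matched for level, and the part of level in this was not tested. The median SD within a line was 0.119 on the log2 scale over the 41 genes, against 0.185 over all genes tested. The median range of the 4 line means was 0.136 on the log2 scale for the proteasome genes, against 0.234 for all genes tested.

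**Figure D1:**
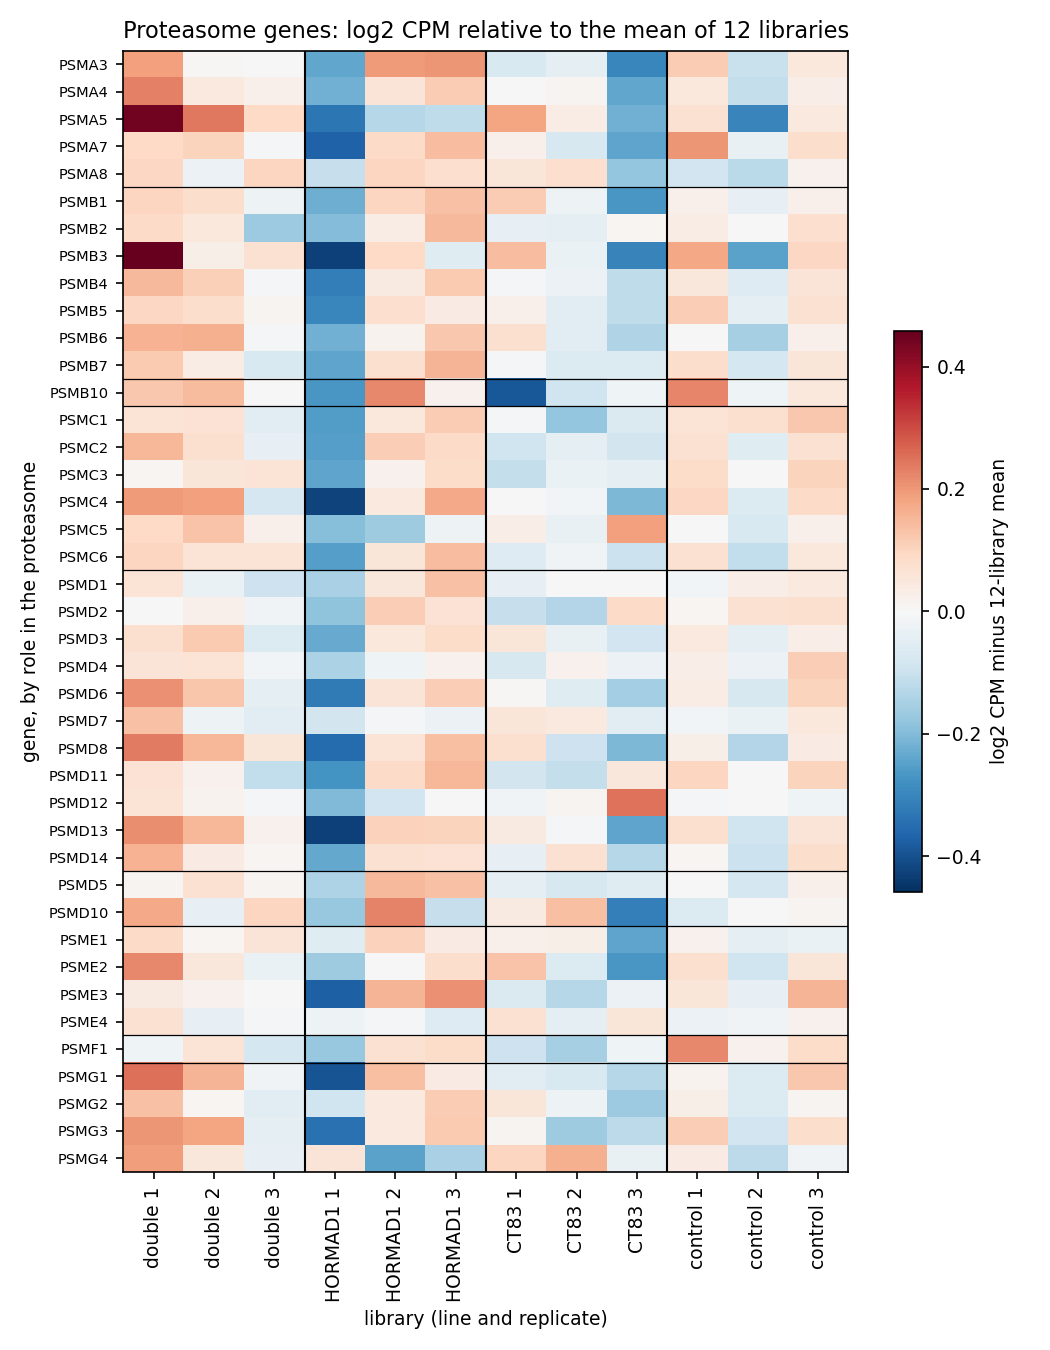
Log2 CPM of each of the 41 tested proteasome genes (rows, grouped by role) minus its mean over the 12 libraries (columns, replicates 1 to 3 of the double, HORMAD1, CT83 and control lines); red is above and blue below the mean. HORMAD1 replicate 1 is blue for nearly all genes, with a mean of -0.233 over the 41 genes, and double replicate 1 is mostly red, with a mean of 0.136.

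Levels differed far more between subunits than between lines. Per kb of transcript, PSMA7, the alpha-ring subunit α4, stood first with a mean of 484 CPM per kb over the 12 libraries. It had 509.8, 514.1 and 477.8 CPM in the double libraries, 370.2, 509 and 527.8 CPM in the HORMAD1 libraries, 486.7, 455.7 and 405.5 CPM in the CT83 libraries, and 550.6, 468.4 and 506.2 CPM in the control libraries. These ranges overlap in every pairing of lines. The next positions per kb were held by the trypsin-like subunit PSMB7 at 343 CPM per kb, the nuclear activator PSME3 at 303, the non-catalytic beta subunits PSMB4 and PSMB1 at 293 and 274, the caspase-like subunit PSMB6 at 180 and the chymotrypsin-like subunit PSMB5 at 174. The ranges over libraries of PSMB7, PSME3, PSMB4 and PSMB1 overlapped, as did those of PSMB6 and PSMB5. The order depends on the transcript assigned to each gene. With the median length of the principal transcripts in place of the longest, PSMA4 stood at 89.8 instead of 56.1 CPM per kb, a gap of over 1.5 times.

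**Figure D2:**
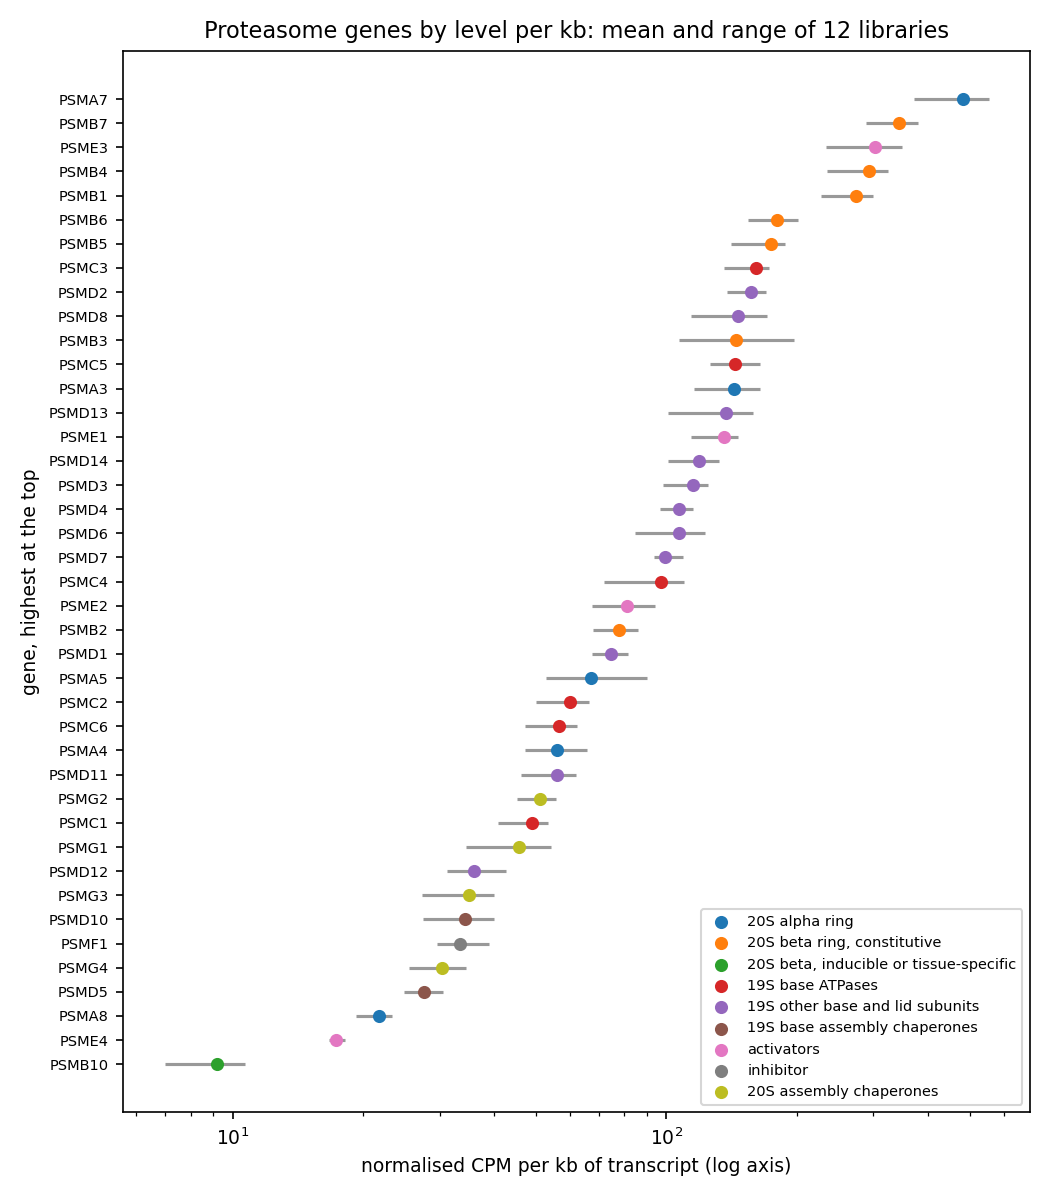
Normalised CPM per kb of transcript (horizontal, log axis) for the 41 tested proteasome genes, highest at the top; points are means of 12 libraries, lines run from the lowest to the highest library, and colours give the role. PSMA7 leads at 484 CPM per kb, 6 of the 7 constitutive beta subunits lie at 145 CPM per kb or above with PSMB2 at 77.6, and PSMB10 is last at 9.22 CPM per kb.

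Among the 6 ATPases, levels per kb ran from 161 CPM per kb for PSMC3 to 49.1 for PSMC1. The exons of PSMC1 share 82.1% of its transcript with the opposite-strand gene NRDE2, and the use of strand in counting is not given in the sources used here, so its level is uncertain. The same holds for PSMD7, with 50.4% shared, for PSMC5, with 27.2% shared with FTSJ3, and to a smaller extent for PSMG2, PSMD13, PSME2, PSMD11 and PSMD14. The scaffold subunit PSMD2 was the highest of the regulatory particle's non-ATPase subunits, at 157 CPM per kb. The deubiquitinase PSMD14, which cuts ubiquitin off the substrate, stood at 119 CPM per kb, and the ubiquitin receptor PSMD4 at 107. PSMD11, a lid subunit, stood at 55.9 and PSMD12, another lid subunit, at 36 CPM per kb. The assembly factors were among the genes at 51 CPM per kb or below, as were PSMD12 and PSMC1. The core chaperones PSMG2, PSMG1, PSMG3 and PSMG4 stood at 51, 45.8, 35 and 30.4 CPM per kb, and the base chaperones PSMD10 and PSMD5 at 34.3 and 27.6. The inhibitor PSMF1 stood at 33.5 CPM per kb. Of the activators, PSME1 and PSME2, which form a ring together, stood at 136 and 81.2, and PSME4, a large single-chain activator, at 17.3.

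Of the inducible or tissue-restricted subunits, PSMB10 and PSMA8 were near the low end and PSMB11 was at 0. PSMB10, the interferon-inducible counterpart of PSMB7, was the lowest gene tested at 9.22 CPM per kb and 99 to 172 counts per library. Its immunoproteasome partners PSMB8 and PSMB9 averaged 39.7 and 50.4 CPM, not divided by length. PSMB10 shares 45.3% of its transcript with a same-strand protein-coding entry, so its level is uncertain. PSMA8, an alpha-ring subunit known mainly from testis, had 41.97, 38.58 and 42.08 CPM in the double libraries and 36.55, 42.04 and 41.42 CPM in the HORMAD1 libraries. It had 40.8, 41.41 and 34.71 CPM in the CT83 libraries and 37.01, 36.02 and 39.77 CPM in the control libraries. All 4 lines overlapped, and the control line, which has neither transgene, held PSMA8 RNA as well. Per kb it stood at 21.8, against 484 for its constitutive counterpart PSMA7. How reads shared by these related genes were assigned is not given in the sources used here. PSMB11, known from the thymic cortex, was listed at 0 in all 12 libraries, where 3 counts, the upper limit that a count of 0 allows, equal 0.212 to 0.303 CPM. That limit covers counting error only.

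Besides PSMB11, 4 genes did not pass the filter on low counts, although each encodes a part of every proteasome or of its assembly. The alpha-ring gene PSMA2 and the base chaperone gene PSMD9 were listed at 0 in every library, PSMA6 had 0 to 2 counts, and PSMA1 had 1 to 8 counts. Each of these 4 genes overlaps, on the same strand, a protein-coding entry in GENCODE 29 that was itself nearly empty. The shared exons made up 53.2% of the PSMA1 transcript, 52.5% of PSMA2, 81% of PSMA6 and 28.2% of PSMD9, and these overlapping entries had at most 4 counts. PSMD9 also shares 15.7% of its transcript on the same strand with CFAP251, a protein-coding gene that had 276 to 432 counts. The part of this overlap in the low values was not tested, and no statement on the expression of these 4 genes is made from them. Proteasome pseudogenes took few reads: of 44 entries, 27 were at 0 in all libraries, and the highest count was 50.

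With both transgenes, PSMA5 was the only proteasome gene past an unadjusted p of 0.05 against the control line. It had 336, 291.9 and 263.1 CPM in the double libraries, against 259, 200.6 and 254.9 CPM in the control libraries. All 3 double libraries lay above all 3 control libraries. The log2 fold change was 0.32 (SE 0.12), a fold of 1.25, with an unadjusted p of 0.0214 and an adjusted p of 0.846 by edgeR's quasi-likelihood test. The size rested on 2 libraries: the value was 0.22 without double replicate 1 and 0.21 without control replicate 2. None of the 41 genes was called, against 4 of 15616 genes tested (0.0256%), which included both transgenes. Past an unadjusted p of 0.05 by edgeR was 1 of 41, against 5.56% of all genes. DESeq2 and limma-voom also called none and put 1 gene past that p. Of the 41 genes, 31 had a log2 fold change above 0 (all genes tested 49.7%), with a median of 0.05, against -0.001 over all genes. After removal of each library's trend on transcript length and GC content, 19 of 41 were above 0 and the median was -0.005. The median was 0.02 without control replicate 2, 0.02 without double replicate 1 and 0.08 without double replicate 3. The groups did not overlap, with the double line higher, for PSMA5, PSMC5 and PSMD8, against 7.61% of all genes.

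The same gene separated the double line from the HORMAD1 line most. PSMA5 had 336, 291.9 and 263.1 CPM in the double libraries, against 196.4, 225.7 and 227.8 CPM in the HORMAD1 libraries. Every double library was above every HORMAD1 library. The log2 fold change was 0.46 (SE 0.12), a fold of 1.37, with an unadjusted p of 0.00229 and an adjusted p of 0.282 by edgeR's quasi-likelihood test. Leaving out 1 library at a time gave 0.36 to 0.53, and the length and GC correction 0.41. Its adjusted p was 0.0237 without the filter on low counts and 0.0141 without the 3 libraries that rise most with transcript length (HORMAD1 replicate 1, CT83 replicate 3 and control replicate 2), where its log2 fold change was 0.39. The latter setting kept every double library, among them double replicate 1, whose length trend is the most negative. In the other alternatives the adjusted p did not pass 0.05, with values up to 0.914 without double replicate 1.

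PSMC5, an ATPase of the regulatory particle, had 242, 249.1 and 231 CPM in the double libraries, against 198.5, 203.1 and 223.9 CPM in the HORMAD1 libraries. These groups did not overlap either. The log2 fold change was 0.21 (SE 0.08), with an unadjusted p of 0.02 and an adjusted p of 0.537 by edgeR's quasi-likelihood test. At the other end, PSMD1, a scaffold of the regulatory particle, had the lowest log2 fold change at -0.04 (SE 0.08), and it was 0.03 without HORMAD1 replicate 3. None of the 41 genes was called by edgeR, DESeq2 or limma-voom, against 0.0448% of all genes by edgeR. That share includes the transgene CT83. Past an unadjusted p of 0.05 were 2 of 41 by each tool, against 7.59% of all genes by edgeR. Those 2 genes were also the only ones without overlap (6.29% of all genes, in the same direction). A log2 fold change above 0 was seen for 35 of 41 genes (all genes 48.1%), with a median of 0.08 against -0.01. This rested on the library HORMAD1 replicate 1, without which the median was -0.009, and it was 0.05 without double replicate 1 and 0.13 without HORMAD1 replicate 3. Without the 3 libraries named above, 20 of 41 were above 0 and the median was -0.004.

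**Figure D3:**
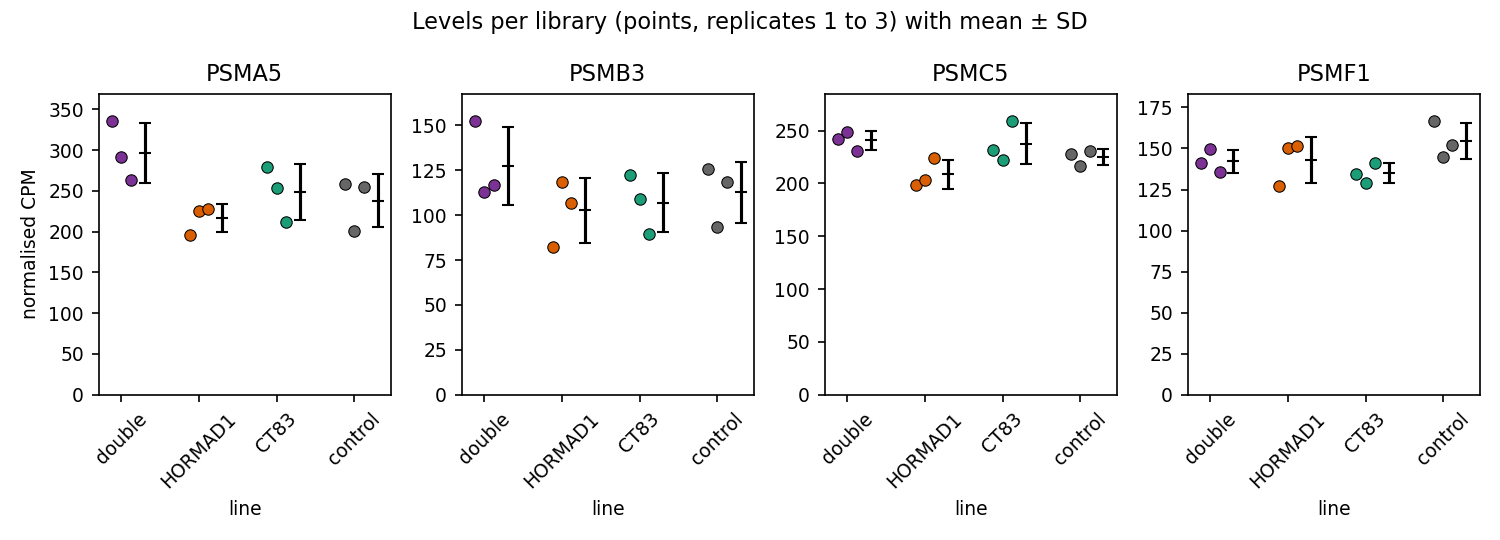
Normalised CPM (vertical, from 0) of PSMA5, PSMB3, PSMC5 and PSMF1 in each library, by line (double, HORMAD1, CT83, control); points are replicates 1 to 3 from left to right and bars give mean ± SD. For PSMA5 the double line sits at 263.1 to 336 CPM, above all HORMAD1 and control libraries, and for PSMF1 the CT83 line sits at 129 to 141.2 CPM, below all control libraries.

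PSMA5 lies on chromosome 1 at 109399031 to 109426427 on the minus strand, and PSMB3, a non-catalytic beta-ring gene, on chromosome 17 at 38752736 to 38764231 on the plus strand (GENCODE 29, GRCh38). These 2 genes had the widest range of line means, 0.451 and 0.315 on the log2 scale, and their promoters are shown for that reason. The sequences are RefSeq's (GRCh38.p14), 5′ to 3′ on the gene's strand. Each ends before the transcript start of RefSeq or GENCODE 29, whichever is further upstream. This is the RefSeq start for PSMA5 and the GENCODE 29 start for PSMB3. Capitals mark the CCAAT box (CCAAT), the GC box (GGGCGG) and the antioxidant response element core (TGACNNNGC), the kind of site that NFE2L1 and small MAF proteins bind, each searched on both strands.
PSMA5 chr1:109426449-109426698 (minus): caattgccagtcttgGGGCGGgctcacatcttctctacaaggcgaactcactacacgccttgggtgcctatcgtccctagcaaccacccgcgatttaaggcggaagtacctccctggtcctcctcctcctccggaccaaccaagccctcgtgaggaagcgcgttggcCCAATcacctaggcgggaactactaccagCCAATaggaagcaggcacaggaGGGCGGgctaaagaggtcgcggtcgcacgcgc
PSMB3 chr17:38752491-38752735 (plus): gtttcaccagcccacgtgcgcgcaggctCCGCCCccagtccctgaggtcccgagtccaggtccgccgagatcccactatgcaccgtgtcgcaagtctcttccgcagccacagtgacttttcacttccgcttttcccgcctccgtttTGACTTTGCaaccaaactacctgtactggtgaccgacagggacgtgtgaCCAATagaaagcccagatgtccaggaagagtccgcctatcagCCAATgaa
Both windows hold 2 CCAAT boxes close to the start. The PSMA5 window has 2 GC boxes, and the PSMB3 window has 1. Only the PSMB3 window of this pair holds an antioxidant response element core, TGACTTTGC, 99 bases from its end. A match of letters is a description and not a bound site.

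In the same table, 40 of the 46 proteasome genes had a promoter window, and PSMA7, PSMB1, PSMB6, PSMB7, PSMD4 and PSMG3 had none. In the 250 bases before the start, an antioxidant response element core stood in 12 of the 40 genes, or 30%, against 13.2% of all 27305 genes in the table. An ETS core (TTCCGG, either strand) stood in 18, or 45%, against 17.2% of all genes. A CCAAT box stood in 18, or 45%, against 37%, and a GC box in 25, or 62.5%, against 46.2%. The genes with the antioxidant response element core were PSMA4, PSMB3, PSMC5, PSMD3, PSMD5, PSMD9, PSMD12, PSME1, PSME2, PSME4, PSMG1 and PSMG2. They span the core, the regulatory particle, the activators and the chaperones. A gene with several starts counts once if any of its windows holds the letters, and the shares were not tested. The 27305 genes were not limited to genes expressed in these libraries, so the shares do not compare proteasome genes with other expressed genes.

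PSMB3 showed how far single libraries reach. It had 152.5, 113 and 116.7 CPM in the double libraries, 82.53, 118.4 and 106.9 CPM in the HORMAD1 libraries, 122.6, 108.8 and 89.7 CPM in the CT83 libraries, and 125.7, 93.63 and 118.6 CPM in the control libraries. Double replicate 1 was the highest and HORMAD1 replicate 1 the lowest, and all lines overlapped. Its SD within a line, 0.24 on the log2 scale, was the widest of the 41 genes. PSME4 had the narrowest, at 0.045. Between the double and the HORMAD1 line the log2 fold change of PSMB3 was 0.32 (SE 0.17), with an adjusted p of 0.705 by edgeR's quasi-likelihood test.

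Against the CT83 line, the double line had most proteasome genes slightly above, though none was called. The 2 lines also differed in CT83 RNA, with means of 101.9 CPM in the double line and 523.4 CPM in the CT83 line. The added HORMAD1 and the lower CT83 level cannot be told apart. PSMA5 had 336, 291.9 and 263.1 CPM in the double libraries, against 279.9, 253.3 and 212.1 CPM in the CT83 libraries, and the groups overlapped. Its log2 fold change, the highest of the 41, was 0.26 (SE 0.12), with an adjusted p of 0.585 by edgeR's quasi-likelihood test. It was 0.15 to 0.34 with 1 library left out and 0.13 with the length and GC correction. The lowest, PSMD12, was at -0.06 (SE 0.08), and it turned to 0.02 without CT83 replicate 3, where PSMD12 was at 188.1 CPM, against 156.2 and 159.5 CPM in the other CT83 libraries. No proteasome gene was called by edgeR, DESeq2 or limma-voom (all genes 0.0064% by edgeR, which was the transgene HORMAD1 alone). None was past an unadjusted p of 0.05 by any of the 3 tools, against 8.05% of all genes by edgeR. The groups did not overlap for 9 of 41, all with the double line higher, against 8.86% of all genes. These were PSMA3, PSMA4, PSMB10, PSMC2, PSMC3, PSMC6, PSMD5, PSME3 and PSMG1, with log2 fold changes from 0.09 to 0.26. In all, 37 of 41 were above 0 (all genes 49.8%), with a median of 0.11 against -0.001. With the length and GC correction 28 of 41 were above 0, with a median of 0.05.

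The CT83 line alone had PSMF1, the inhibitor, as its gene past an unadjusted p of 0.05. PSMF1 had 134.2, 129 and 141.2 CPM in the CT83 libraries, against 166.8, 145 and 151.9 CPM in the control libraries. The CT83 libraries were all below the control libraries. The log2 fold change was -0.20 (SE 0.09), a fold of 0.872, with an unadjusted p of 0.0372 and an adjusted p of 0.984 by edgeR's quasi-likelihood test. Leaving out 1 library at a time gave -0.235 to -0.142, with unadjusted p-values of 0.0122 to 0.165 by edgeR's quasi-likelihood test. Without control replicate 2 and CT83 replicate 3 and HORMAD1 replicate 1, the log2 fold change was -0.28, with an adjusted p of 0.0783. In the double line, PSMF1 had the lowest log2 fold change against control of the 41, at -0.12 (SE 0.09), from 141.3, 149.6 and 135.6 CPM, and these libraries overlapped with the control libraries. Both comparisons share the control libraries.

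None of the 41 genes was called between the CT83 and control lines by edgeR, DESeq2 or limma-voom (all genes 0.0064% by edgeR). The only gene called there by edgeR was the transgene CT83. Each tool put 1 of 41 past an unadjusted p of 0.05, against 2.74% of all genes by edgeR. Below 0 were 33 of 41 (all genes 48.4%), with a median log2 fold change of -0.06 against 0.01 for all genes. The median was -0.04 without CT83 replicate 3 and -0.10 without control replicate 2. With the length and GC correction 29 of 41 were below 0, with a median of -0.04. The extremes were PSMB10 at -0.25 (SE 0.16) and the core chaperone PSMG4 at 0.11 (SE 0.11). PSMB10 had 8.485, 10.46 and 11 CPM in the CT83 libraries, against 13.04, 11.02 and 11.54 CPM in the control libraries. The groups were apart by a narrow gap for PSMB10, and also lay apart for PSMF1 and for the ATPases PSMC1 and PSMC3, all lower in the CT83 line (5.73% of all genes). Leaving out the 3 libraries that rise with length took 1 library from each line compared. In that fit 119 of all genes were called, and 13.2% were past an unadjusted p of 0.05 in either direction by edgeR. Of the 41 genes, 8 were below 0 at an unadjusted p under 0.05, against 6.96% of all genes in that direction. These 8 were PSMA7, PSMB10, PSMC1, PSMC3, PSMD2, PSMD11, PSME3 and PSMF1, with log2 fold changes from -0.16 to -0.38. Their adjusted p-values by edgeR's quasi-likelihood test ran from 0.0783 to 0.339, so none was called.

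**Figure D4:**
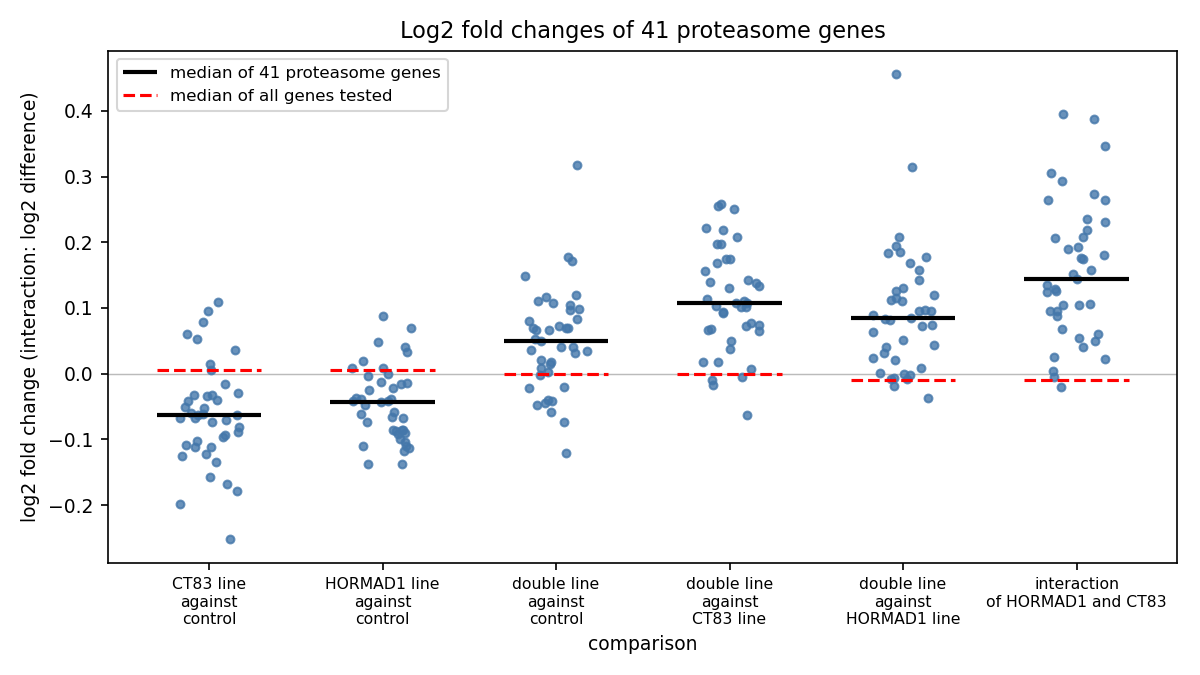
Log2 fold changes of the 41 tested proteasome genes (points) in the 5 comparisons of lines and, as a difference of log2 fold changes, in the interaction (vertical; the horizontal spread within a comparison is arbitrary); black bars give the median of the 41 genes and dashed red bars that of all genes tested. The medians run from -0.06 for the CT83 line against control to 0.14 for the interaction, and PSMA5 is the top point in the last 4 comparisons.

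Between the HORMAD1 and control lines no proteasome gene stood out. None of the 41 was called or past an unadjusted p of 0.05 by edgeR, DESeq2 or limma-voom, against 0.0064% and 1.82% of all genes by edgeR. The only gene called there by edgeR was the transgene HORMAD1. None of the 41 had groups apart in either direction, against 4.25% of all genes higher and 3.32% lower. The extremes were PSMA5 at -0.14 (SE 0.12) and PSMA8 at 0.09 (SE 0.10). The SE was 0.097 at the median gene. Below 0 were 33 of 41 (all genes 48%), with a median of -0.04 against 0.01. This direction rested on 1 library: without HORMAD1 replicate 1 the median was 0.07. Without HORMAD1 replicate 2, HORMAD1 replicate 3 and control replicate 2 in turn it was -0.09, -0.10 and -0.08, and without control replicate 3 it was -0.02.

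The interaction asks whether the double line departs from the sum of the 2 single lines' log2 fold changes. CT83 RNA averaged 101.9 CPM in the double line, against 523.4 CPM in the CT83 line. Transgene level and combination therefore cannot be told apart here. PSMA5 had the highest value, 0.39 (SE 0.17), with an unadjusted p of 0.0397 and an adjusted p of 0.841 by edgeR's quasi-likelihood test. It was the only one of 41 past an unadjusted p of 0.05, against 4.5% of all genes. PSMA8 had the lowest value, -0.02 (SE 0.14). No gene of the 15616 was called by edgeR (0%), and none of the 41 by DESeq2 or limma-voom, which each put 1 past the unadjusted p. Values above 0 were found for 39 of 41 (all genes 48.5%), with a median of 0.14 against -0.01. The interaction uses the same 12 libraries as the comparisons above. Its median was 0.06 without HORMAD1 replicate 1 and 0.23 without HORMAD1 replicate 3. With the length and GC correction 30 of 41 were above 0, with a median of 0.10, and without the 3 libraries that rise with length 33 of 41, with a median of 0.07.

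In several libraries, most proteasome genes lay on the same side of their line. In HORMAD1 replicate 1, 39 of 41 were the lowest of their line, where 42.1% of all genes were. In double replicate 3 the count was 34 (35.1%), in CT83 replicate 3 it was 24 (40.6%), and in control replicate 2 it was 35 (39.1%). Every role took part in the low library HORMAD1 replicate 1, from -0.15 for the activators to -0.28 for the constitutive beta ring, as mean log2 deviations from the 12 libraries. In double replicate 1 the alpha ring was at 0.21, the core chaperones at 0.20 and the beta ring at 0.17, while the inhibitor PSMF1 was at -0.02. CT83 replicate 3 was mixed: role means ran from -0.24 for the alpha ring, through -0.14 for the constitutive beta ring, to -0.02 for the single genes PSMB10 and PSMF1. Within the regulatory particle it ran from -0.24 for the lid gene PSMD13 to 0.25 for PSMD12. In CT83 replicate 2, 11 of 41 genes were the lowest and 11 the highest of their line. Differences between roles were not tested.

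Summed over all 46 genes, the level was 8067 ± 392 CPM in the double libraries, 7587 ± 948 CPM in the HORMAD1 libraries, 7489 ± 234 CPM in the CT83 libraries and 7856 ± 346 CPM in the control libraries (SD, n = 3 each). Single libraries ran from 6497 CPM in HORMAD1 replicate 1 to 8432.9 CPM in double replicate 1, and the lines differed by less than the spread of the HORMAD1 libraries. The double line had the highest mean for 27 of 41 genes (all genes 31%), and the CT83 line the lowest for 25 (all genes 27.6%).

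The libraries with low proteasome levels were also those in which long transcripts were relatively high. The length trend is the slope of a library's log2 CPM deviations per doubling of transcript length over all genes tested. It was most positive in HORMAD1 replicate 1 at 0.059, CT83 replicate 3 at 0.054 and control replicate 2 at 0.029. The mean deviation of the 41 genes was -0.233, -0.105 and -0.062 in those libraries. At the other end, double replicate 1 had a slope of -0.048 and a mean deviation of 0.136. The tested proteasome genes have short transcripts, with a median of 1591 bases, against 2676 bases for all genes tested, and a median GC content of 49.9% against 48.7%. Within the double line, the slopes of replicates 1 to 3 were -0.048, -0.027 and 0.005 beside mean deviations of 0.136, 0.069 and -0.009. PSMA5, at 3729 bases, is longer than the median gene, but its deviations had the same signs as these means. They were -0.331 in HORMAD1 replicate 1, -0.22 in CT83 replicate 3, -0.301 in control replicate 2 and 0.443 in double replicate 1. The part of the length trend in the movement shared by most of these genes was tested only by the corrected values given above.

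**Figure D5:**
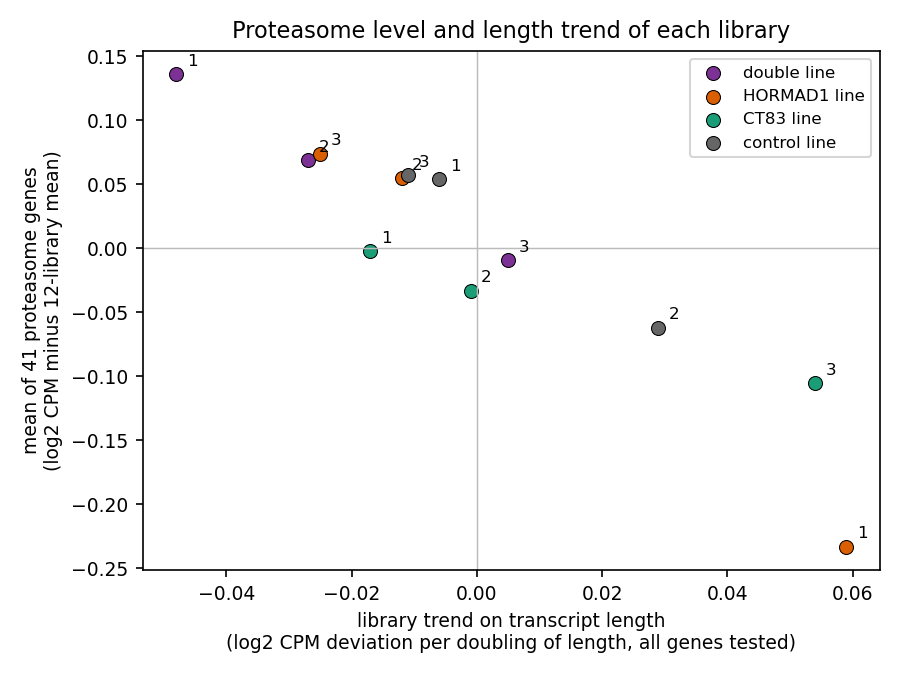
Mean log2 deviation of the 41 proteasome genes from the 12-library mean (vertical) against each library's trend on transcript length (horizontal, log2 CPM deviation per doubling of length over all genes tested); each point is a library, coloured by line and numbered by replicate. HORMAD1 replicate 1 lies at 0.059 and -0.233, and double replicate 1 at -0.048 and 0.136.

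Genes that act with the proteasome also gave no call. The lists held 35 such genes, of which 34 were tested, and DDI1 was listed at 0. In the edgeR quasi-likelihood fit, adjusted by Benjamini-Hochberg, 0 of 34 were called in each of the 6 comparisons, where 0% to 0.0448% of all genes were. The shares over all genes include the transgenes. ECPAS, a scaffold that binds the proteasome and is known to take it apart under stress, had 169, 169.7 and 162.1 CPM in the double libraries. It had 199.6, 179.8 and 186.9 CPM in the HORMAD1 libraries, 179, 179.9 and 207.8 CPM in the CT83 libraries, and 190.6, 202 and 176.9 CPM in the control libraries. The double libraries were below all the others. In each of the other lines, ECPAS was highest in the library that rises most with transcript length (HORMAD1 replicate 1, CT83 replicate 3 and control replicate 2). The part of the length trend in this gap was not tested. Of all genes, 5.91% lay lower without overlap in the double line against the HORMAD1 line, 9.04% against the CT83 line and 7.83% against the control line. The log2 fold change of ECPAS in the double line was -0.18 against the HORMAD1 line and -0.18 against the CT83 line, and -0.19 against the control line. The unadjusted p-values by edgeR were 0.0463, 0.0462 and 0.0388, and the adjusted p-values 0.653, 0.585 and 0.87. These comparisons share the double libraries.

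MAFF, a small MAF partner of NFE2L1, had 33.45, 36.3 and 36.04 CPM in the double libraries, against 46.32, 38.66 and 40.98 CPM in the HORMAD1 libraries. The groups did not overlap (5.91% of all genes in that direction), and the log2 fold change was -0.25, with an adjusted p of 0.594 by edgeR's quasi-likelihood test. NFE2L1 itself had 153.1, 178.4 and 167.5 CPM in the double libraries, 214.4, 160.7 and 147.1 CPM in the HORMAD1 libraries, 179, 198.1 and 231.5 CPM in the CT83 libraries, and 172, 207 and 169.2 CPM in the control libraries. Its highest libraries, CT83 replicate 3, HORMAD1 replicate 1 and control replicate 2, are the 3 in which the proteasome genes were lowest. POMP, the chaperone that matures the core, was low in the same 3 libraries, at 140.8, 137.6 and 153.2 CPM, against 162.6 to 183.3 CPM in the other 9. NFE2L2, a relative of NFE2L1, stayed between 77.14 and 89.29 CPM in all 12 libraries. The part of the length trend in these values was not tested.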

How the data were processed

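RNA sequencing gave 12 libraries of 4 lines. The authors deposited expected counts per gene, estimates that need not be whole. The submitters' processing notes name SAMtools, Picard, STAR 2.7.5c and Trimmomatic 0.39, and the builds hg38 and hg19 without roles. What counted the reads, and on which annotation, is not given in the sources used here. Rounding to whole numbers altered 6.75% of the values, by no more than 0.5. Gene IDs were matched to GENCODE 29 without version for coordinates, length and GC content.

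After filterByExpr in edgeR 4.0.16 (minimum count 10) and TMM scaling, genes were fitted with the quasi-likelihood model on all 12 libraries (8 residual degrees of freedom). The call threshold was an adjusted p (Benjamini-Hochberg, over 15616 genes) under 0.05 in each of 6 comparisons. CPM is normalised, and log2 CPM used a prior count of 2. Each SE is the absolute log2 fold change divided by the square root of the quasi-likelihood F statistic. DESeq2 1.42.0, limma 3.58.1 (voom), other filters and scalings, a replicate block, a length and GC correction and left-out libraries were alternatives. The fit was tested on simulated data. These were drawn for each gene independently and without a length trend, so that test does not cover movement shared by many genes. The proteasome genes, lists and motifs were chosen with earlier results of these data known. Genes were named if past an unadjusted p of 0.05 (at most 8), highest or lowest in a comparison, or fixed subunits of each role; PSMB3, the genes without overlap, ECPAS, MAFF, NFE2L1, NFE2L2 and POMP were chosen after their values were seen.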

Additional observations from a re-analysis of the deposited data

How the results depend on the processing

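No proteasome gene was called in any comparison under any alternative except PSMA5 in the double against the HORMAD1 line. There 1 was called without a low-count filter and 1 without the 3 libraries of most positive length trend. Those 3 include no double library, so double replicate 1, with a slope of -0.048, was kept. Of the named genes' values, 309 kept direction and side of the threshold under the alternatives, 9 turned sign and 2 passed the threshold (PSMA5, log2 fold changes of 0.45 without the filter and 0.39 without the 3 libraries). Those that turned were near 0: the interaction of PSMA8 (0.00 to 0.02 without 1 of control replicate 2, CT83 replicate 1 or 2, HORMAD1 replicate 2 or 3 or double replicate 2, as 0.002, 0.007, 0.023, 0.01, 0.007 and 0.021, in a range of -0.104 to 0.023), PSMD1 in the double against the HORMAD1 line (0.026 without HORMAD1 replicate 3, in a range of -0.119 to 0.026), and PSMD12 in the double against the CT83 line (0.022 without CT83 replicate 3, in a range of -0.121 to 0.022, and 0.027 without the 3 libraries). The median of the 41 genes kept its sign with every library left out except in the HORMAD1 line against control (-0.104 to 0.065) and the double against the HORMAD1 line (-0.009 to 0.132). It also turned in the double line against control with the length and GC correction (-0.005), and without the 3 libraries in the HORMAD1 line against control (0.024) and the double against the HORMAD1 line (-0.004). Over all genes, the transgenes included, the number called was small and moved with the settings. For the CT83 line against control it was 1, and 0 at an adjusted p under 0.01, without a filter, with only the groups compared and after length and GC correction, 0 to 1 with a library left out, and 119 without the 3 libraries. For the HORMAD1 line against control it was 1, 2 by DESeq2, 0 with only the groups compared, 1 to 2 with a library left out and 6 without the 3 libraries. For the double line against control it was 4, 1 at 0.01, 12 without a filter, 2 by limma-voom, 2 with the length and GC correction, 1 to 5 with a library left out and 13 without the 3 libraries. For the double against the CT83 line it was 1, 0 without a filter, 3 by DESeq2, 2 by limma-voom, 1 to 2 with a library left out and 73 without the 3 libraries. For the double against the HORMAD1 line it was 7, 0 at 0.01, 99 without a filter, 57 by DESeq2, 4 by limma-voom, 11 with the length and GC correction, 1 with only the groups compared, 0 to 39 with a library left out and 339 without the 3 libraries. For the interaction it was 0, 2 without a filter, 3 by DESeq2 and 22 without the 3 libraries. The causes were not tested. Of 18 pairs of same-numbered libraries, 6 correlated above 0.1, in a range of -0.354 to 0.351. Libraries of different number were not compared, so whether the replicate numbers pair the libraries was not settled. With the replicate number as a block, 2 genes were called for the double line against control, 2 against the CT83 line and 1 against the HORMAD1 line, and with the block and the length and GC correction together 2 and 2 in the first 2 of these, with 0 proteasome genes in each. Library depth limits PSMB10 most, at 99 to 172 counts.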
